A study of Homo sapiens with 8 samples.

Results

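This account concerns the joint effect of PF-03084014 and dexamethasone on messenger RNA in CUTLL1 cells, an established human line of T-cell acute lymphoblastic leukemia. By their labels, 2 arrays of cells given both compounds, at 1 microM each for 48 h (the combination), were compared with 2 arrays of cells given the DMSO vehicle for 48 h. These are 4 of the 8 arrays of the series. The other 4 arrays hold cells given 1 microM PF-03084014 alone or 1 microM dexamethasone alone, and they enter here through the estimate of the spread and as side-by-side values. Every group is the same single cell line, with no genotype difference between groups and no other agent named in the labels. Whether the replicas of a group grew as separate cultures is not said in the labels, and the p-values therefore describe the spread among these arrays, which may be technical. All 19775 genes with a usable probe set were examined, and differences from DMSO were computed on each combination array. Calls of the combination against a single compound rest on the mean of the 2 combination arrays and were not checked on each.

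NOTCH receptors are cut by gamma-secretase after ligand binding or oncogenic mutation, and the freed intracellular part joins the DNA-binding protein RBPJ to switch on targets such as HES1 and DTX1. PF-03084014 is a gamma-secretase inhibitor and blocks that cut. Dexamethasone is a synthetic glucocorticoid: it binds the glucocorticoid receptor, the product of NR3C1, which then moves to the nucleus, raises genes such as TSC22D3 and FKBP5, and in sensitive lymphoid cells raises death-promoting members of the BCL2 family. The comparison addresses which expression changes accompany both treatments given together.

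The second combination array stood apart. Its median intensity was 76.3, against 61.8 to 63.9 on the other 7 arrays, and 43.9% of probe sets on it were brighter than 100, compared with 40.4% to 41.0% elsewhere. With genes split into 4 equal groups by DMSO intensity, the next to dimmest group had a median difference from the DMSO mean of 0.39 log2 units on that array and 0.013 on the first combination array. In the brightest group it was -0.067 and 0.0091. Of 1802 genes at least 2-fold apart between the combination arrays, 1513 were higher on the second, and 1507 had a DMSO mean under 100. The part of this offset in the results below was not tested, and the calls lost without the second combination array are given further down.

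Both compounds together changed the level of 2360 genes, 11.9% of those tested, at an adjusted p under 0.05 (limma, all 8 arrays, Benjamini-Hochberg over 19775 genes). Of these, 1269 rose (6.42% of genes tested) and 1091 fell (5.52%), and a gene is said to rise or fall below only where it passed this test. The changes were mostly modest. Among called genes the median size was 0.60 log2 units; 448 genes differed at least 2-fold (209 higher, 239 lower), 70 at least 4-fold (31 and 39) and 23 at least 8-fold (14 and 9). For 349 called genes, 165 higher and 184 lower, each combination array on its own lay at least 2-fold from the DMSO mean. All 2360 called genes had both combination arrays beyond both DMSO arrays. Over all genes tested, 29.1% had both combination arrays above both DMSO arrays and 21.5% had both below. The share called depended on brightness. In the 4 equal groups by DMSO intensity, from dimmest to brightest, 2.43%, 1.64%, 10.4% and 11.2% of genes were called higher. The shares called lower were 0.79%, 1.03%, 8.44% and 11.8%. The shares over all genes are therefore a low background for a list of mostly bright genes.

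**Figure D1:**
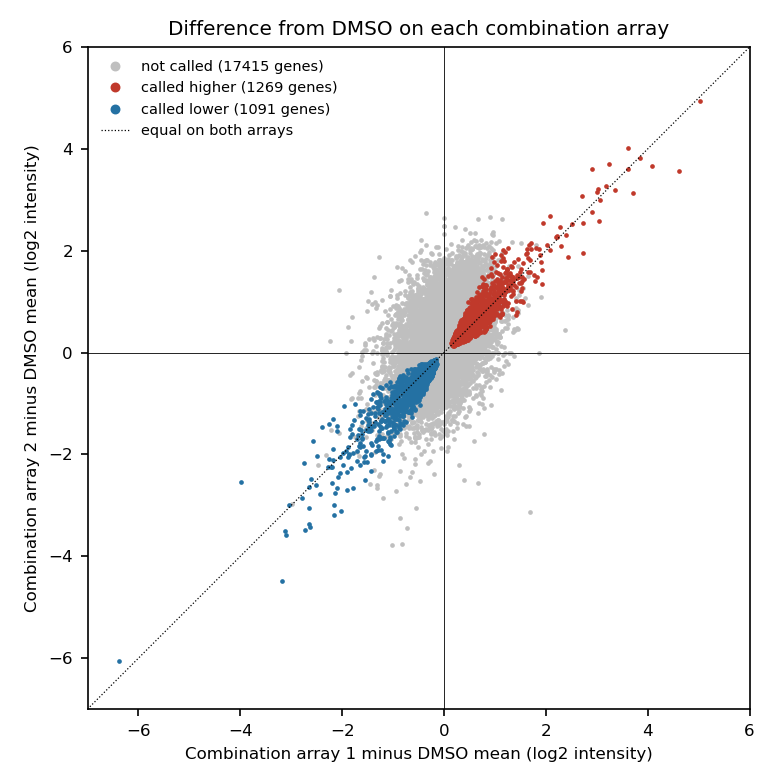
Each point is 1 of 19775 genes; the axes give log2 intensity minus the DMSO mean on the first (horizontal) and the second (vertical) combination array, grey for genes not called, red for the 1269 called higher and blue for the 1091 called lower, with a dotted line where both arrays are equal. The called genes lie near the dotted line in the upper right and lower left, while the cloud of genes not called is taller than it is wide.

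The number of genes called moved with the arrays and the scaling. Without the second combination array 1116 genes rose and 1002 fell, and 1543 of the 2360 were called again; in such a fit the remaining array is assumed to vary like the other groups. When all arrays were shifted to a common median the balance turned, with 329 higher and 975 lower, and the median of all genes moved from 0.064 to -0.11 log2 units. In a limma fit of the 4 compared arrays alone, with 2 arrays a group, no gene was called, and 3723 genes had an unadjusted p under 0.05. The standard errors below pool the spread of all 4 groups, and the combination arrays varied more than the pool (SD of the log2 difference between arrays, 0.548 for the combination and 0.361 for DMSO), so these errors tend to be small for the combination.

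Markers of T cells stayed bright with both compounds. Of 12 markers of T-cell leukemia analysed here, CD3D, CD1B and LCK were bright in both groups: CD3D, a chain of the T cell receptor complex, read 13700 and 13545 with DMSO and 13910 and 12131 with the combination. The adhesion receptor CD2 went from 3063 and 2804 to 7016 and 5788, a rise of 1.12 ± 0.10 log2 units (adjusted p = 0.00486), and CD3E, GATA3 and RAG1 rose as well. PTCRA, the fixed partner chain of the pre-T-cell receptor, fell.

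Markers of other lineages were mostly dim. Among B-lineage markers 1 of 11 rose, CD79A (297 and 300 to 504 and 585), and among myeloid markers 1 of 13 fell, the integrin ITGAM (330 and 372 to 112 and 102). No erythroid or megakaryocyte marker of 10 and no epithelial or stromal marker of 15 was called by limma, with 3 and 1 at an unadjusted p under 0.05. Summed intensities over the lists were 1027 and 1016 with DMSO against 1209 and 1602 with the combination for the B-lineage, and 772 and 812 against 621 and 745 for the myeloid markers. For the erythroid markers they were 9702 and 11235 against 8153 and 8985, and for the epithelial and stromal markers 10493 and 10552 against 10657 and 9828. Both combination arrays lay above both DMSO arrays in the B-lineage sum and below them in the myeloid and erythroid sums, while the epithelial and stromal sums overlapped. The sums rest on few genes: 9 of 11 B-lineage, 10 of 13 myeloid and 6 of 10 erythroid members averaged under 100. The changes of CD79A and ITGAM are large beside those of their sums, so the sums do not measure lineage content. The part of these markers in other results was not tested.

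The largest rises joined known glucocorticoid targets with genes of other functions. The uncharacterised locus LOC101927432 rose most, from 17.5 and 4.91 with DMSO to 544 and 515 with the combination, by 4.98 ± 0.36 log2 units (adjusted p = 0.0037). CLIC3, a member of the chloride intracellular channel family, went from 8.03 and 10.5 to 389 and 190 and rose by 4.09 ± 0.43. The chemokine receptor gene CCR2 went from 4.97 and 9.27 to 273 and 202 and rose by 3.88 ± 0.26. CLIC3 and CCR2 lay below the floor of 16 on both DMSO arrays and LOC101927432 on 1 of them, so these differences were measured from the floor; 42 of the called rises were at it on both DMSO arrays.

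Other genes among the 12 largest rises were bright with the combination. TSC22D3, which encodes the glucocorticoid-induced leucine zipper GILZ, read 506 and 583 with DMSO and 7836 and 7697 with the combination, a 14.3-fold rise (3.84 ± 0.082 log2 units, adjusted p = 0.000332). PFKFB2, whose enzyme sets the level of the glycolytic activator fructose 2,6-bisphosphate, went from 257 and 288 to 3329 and 4432, a rise of 3.82 ± 0.14. PIK3IP1, an inhibitor of PI3 kinase, went from 138 and 271 to 2368 and 2360, a rise of 3.61 ± 0.30. In each of these the lower combination array was over 8 times the higher DMSO array. Of the 3 probe sets of TSC22D3, 2 were called higher, at 3.84 and 3.96. With probe sets ending in _s_at or _x_at left out, TSC22D3 differed by 0.52 ± 0.41 (limma, adjusted p = 0.470) and was not called. The probe set left was dim, at 30.9 and 55.3 with DMSO and 42.7 and 82.5 with the combination. The laminin-binding integrin ITGA6 went from 157 and 216 to 1498 and 1709, a rise of 3.12 ± 0.17.

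The remaining large rises were the cell adhesion gene NEGR1 (3.48), the growth factor binding protein gene IGFBP3 (3.42), the death-promoting gene BMF (3.27), the p53-induced TP53INP1 (3.26) and the ADP-ribosylhydrolase gene MACROD2 (3.22), in log2 units. Their DMSO intensities lay between 28.6 and 73.8 except for NEGR1 at 23.0 and 38.1, and no DMSO array overlapped a combination array. Set beside the single compounds, TSC22D3, BMF and ITGA6 were higher with the combination than with either alone, and MACROD2, PFKFB2 and PIK3IP1 were called against PF-03084014 but not against dexamethasone (background of rises, 1.09% against PF-03084014 and 3.26% against dexamethasone). CCR2 ran the other way: it stood at 3.48 log2 units with PF-03084014, 0.30 with dexamethasone and 3.88 with the combination, which was called against dexamethasone (adjusted p = 0.0087) and not against PF-03084014 (difference 0.40, adjusted p = 0.467). These genes were picked for their size on the same combination arrays, and IGFBP3 was not called without the second DMSO array (2.89).

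**Figure D2:**
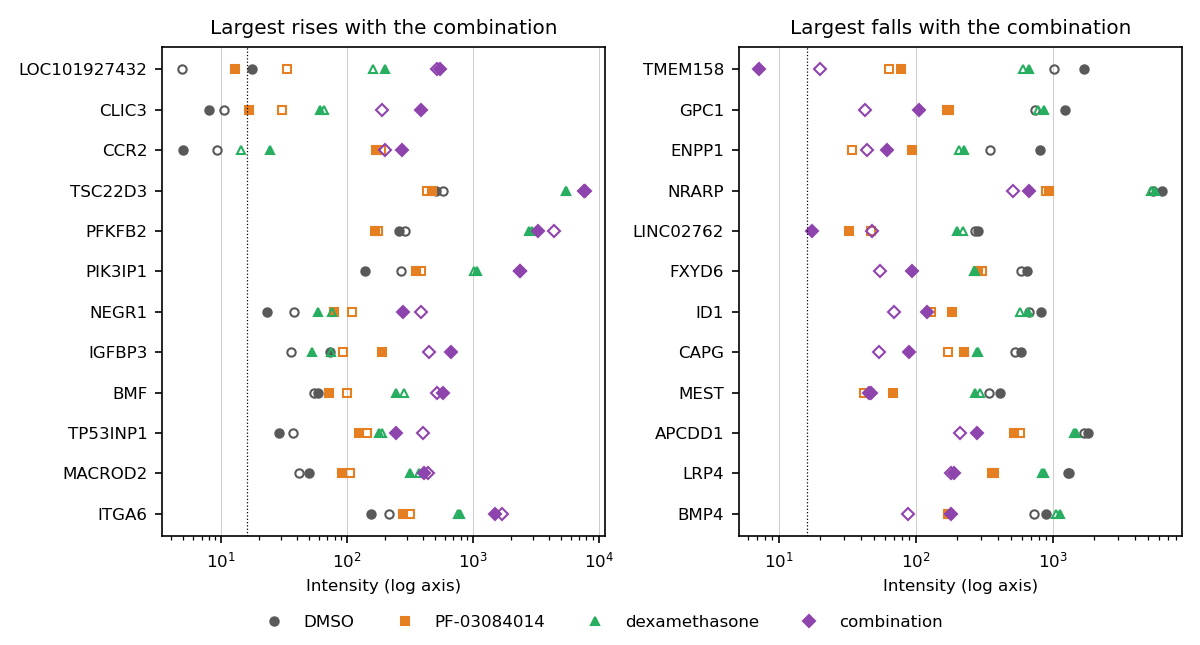
Intensity on a log axis of the 12 genes with the largest rises (left) and the 12 with the largest falls (right) on all 8 arrays, with filled symbols for replicate 1, open symbols for replicate 2 and a dotted line at the floor of 16. The combination diamonds lie beyond the DMSO circles for every gene shown; TSC22D3 runs from 506 and 583 to 7836 and 7697, and TMEM158 from 1707 and 1030 to 7.18 and 19.9.

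The deepest fall was that of TMEM158, a membrane protein gene on the list of NOTCH targets. It read 1707 and 1030 with DMSO, 78.1 and 64.1 with PF-03084014, 672 and 613 with dexamethasone and 7.18 and 19.9 with the combination, where the first array lay below the floor. The log2 difference was -6.21 ± 0.28 (adjusted p = 0.00189), and the combination was lower than either compound alone, with a difference of -1.99 from PF-03084014 (adjusted p = 0.0354) and -5.17 from dexamethasone (adjusted p = 0.00545). GPC1, a heparan sulfate proteoglycan, went from 1236 and 740 to 106 and 42.8, and the ectonucleotidase gene ENPP1 went from 812 and 349 to 61.7 and 44.3. Both fell, but their DMSO arrays lay far apart, and GPC1 was not called without the first DMSO array (-3.46) nor ENPP1 without either DMSO array (-2.74 and -3.96) or the second combination array (-3.11).

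Other large falls included secreted and membrane regulators of developmental signalling. LRP4, a low-density lipoprotein receptor family member that modulates WNT signalling, read 1326 and 1301 with DMSO and 190 and 180 with the combination (-2.83 ± 0.057 log2 units, adjusted p = 0.000332). The WNT inhibitor APCDD1 went from 1800 and 1705 to 281 and 212 (-2.85 ± 0.14). In both genes the combination arrays lay below the PF-03084014 arrays, which read 372 and 363 for LRP4 and 522 and 582 for APCDD1, and the differences of -0.99 and -1.18 were called (adjusted p = 0.0104 and 0.0265). FXYD6, a regulator of the sodium pump, stood at -1.08 with PF-03084014, -1.21 with dexamethasone and -3.11 with the combination, again below either compound alone. The actin-capping gene CAPG (-3.01), the imprinted gene MEST (-3.01) and the noncoding LINC02762 (-3.26) fell and were not called against PF-03084014 alone. LINC02762 was not called without either DMSO array (-3.22 and -3.30).

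Glucocorticoid receptor targets were higher in part. This list, like the others, was chosen with earlier results of these data known, so its counts describe and do not test. It shares TSC22D3, PFKFB2, MACROD2 and ITGA6 with the 12 largest rises. Of 32 tested, 18 rose, 3 fell and 11 were not called, with a median difference of 0.63 log2 units on the mean of the arrays, 0.60 on the first and 0.63 on the second combination array, against a median of 0.064 over all genes. The median of the same 32 genes was 0.18 with PF-03084014 and 0.22 with dexamethasone, and 10 were higher with the combination than with PF-03084014 and 12 than with dexamethasone. NR3C1, the receptor itself, read 2932 and 3384 with DMSO and 6631 and 6413 with the combination, against 3947 and 3906 with dexamethasone and 3430 and 3555 with PF-03084014. Its rise of 1.05 ± 0.072 log2 units (adjusted p = 0.00342) was called on all 5 of its probe sets (7.95% of all probe sets were called), and the combination exceeded each compound alone, by 0.90 and 0.73. FKBP5, the immunophilin that dampens receptor signalling, went from 5932 and 6398 to 12873 and 12018, a rise of 1.01 ± 0.056.

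The other called rises in that group, from the largest down, were MACROD2, ITGA6, TXNIP, ISG20, BTG1, TGFBR2, KLF13, SNTB2, CD53, SLA, SOCS1, TNFAIP3, SGK1, DUSP1 and CXCR4, beside TSC22D3, PFKFB2 and FKBP5. They span an anti-proliferative gene (BTG1), a thioredoxin-binding brake on glucose uptake (TXNIP), a kinase of ion transport (SGK1) and feedback regulators of cytokine, NF-kappaB and MAP kinase signals (SOCS1, TNFAIP3, DUSP1). BTG1 read 3789 and 3888 with DMSO and 12085 and 11465 with the combination, and TXNIP went from 45.8 and 60.1 to 346 and 307. Those that fell were the G-protein regulators RGS1 (-1.34 ± 0.17) and RGS2 (-0.96 ± 0.14) and the metallothionein MT2A (-1.19 ± 0.27), and MT2A was not called without the second combination array. Across the alternative settings other than the fit of 4 arrays alone, 11 to 19 members rose.

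Of 17 chaperones and cofactors of the receptor, 5 rose (NR3C1, FKBP5 and the coactivators CREBBP, NCOA1 and NCOA2) and 2 fell. The falls numbered 8 without the first combination array, and array weights left 2 rises and 1 fall. FKBP4, the immunophilin that assists the receptor where FKBP5 restrains it, read 1976 and 1953 with DMSO and 1082 and 908 with the combination, a difference of -0.99 ± 0.11 (adjusted p = 0.00798). The HSP70 to HSP90 adaptor STIP1 fell by 0.60 ± 0.091. The FKBP4 arrays of the groups did not overlap, and of its 4 probe sets 2 were called lower, at -0.99 and -1.45. The probe set left when those ending in _x_at or _s_at were dropped stood at 0.36 and was not called. It lay near the floor of 16, at 14.8 and 18.0 with DMSO and 15.6 and 29.9 with the combination.

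Canonical NOTCH targets were low with the combination. Their promoters are shown because the RBPJ core TGGGAA, searched on both strands, occurs in those of 3 repressor genes that fell, HES1, HES4 and HES5. The sequences are RefSeq promoters of build GRCh38.p14, 300 bases each around the start, written 5′ to 3′ on the gene's strand with the core or its reverse complement in capitals.
HES1 (chr3:194135898-194136197, plus strand): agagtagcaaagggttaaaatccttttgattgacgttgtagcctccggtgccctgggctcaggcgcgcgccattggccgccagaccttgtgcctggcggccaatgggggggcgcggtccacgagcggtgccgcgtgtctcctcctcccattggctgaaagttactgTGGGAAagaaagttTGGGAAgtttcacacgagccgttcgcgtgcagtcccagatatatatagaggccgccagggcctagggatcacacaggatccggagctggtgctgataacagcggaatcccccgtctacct
HES4 (chr1:1000048-1000347, minus strand): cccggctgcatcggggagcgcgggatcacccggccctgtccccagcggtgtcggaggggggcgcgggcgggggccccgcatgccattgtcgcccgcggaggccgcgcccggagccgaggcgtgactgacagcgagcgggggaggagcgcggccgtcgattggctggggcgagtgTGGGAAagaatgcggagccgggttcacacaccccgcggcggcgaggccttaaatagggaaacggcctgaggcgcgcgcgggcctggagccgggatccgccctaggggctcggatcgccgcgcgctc
HES5 (chr1:2530214-2530513, minus strand): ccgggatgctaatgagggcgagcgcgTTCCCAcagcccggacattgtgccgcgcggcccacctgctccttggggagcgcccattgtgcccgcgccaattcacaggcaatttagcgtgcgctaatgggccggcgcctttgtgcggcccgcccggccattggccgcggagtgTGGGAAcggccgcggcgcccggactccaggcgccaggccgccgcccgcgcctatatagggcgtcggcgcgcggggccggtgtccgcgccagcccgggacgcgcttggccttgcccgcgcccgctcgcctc
The core begins 84 and 70 bases before the start in HES1 and 76 bases before it in HES4. In HES5 it begins 80 bases before the start, with a match on the opposite strand 224 bases before it. Of 35093 promoters of that length, 24.0% hold the core and 3.79% hold it 2 or more times, and the window of NRARP holds none. The promoters of TSC22D3 and FKBP5 were searched for a strict palindromic form of the glucocorticoid response element. This form, AGAACA and TGTTCT with any 3 bases between them, reads the same on both strands. It matched 0 of 4 and 0 of 2 promoters, and 1 of the 35093. With so rare a form, the search cannot tell whether these genes have a response element. A match is a description of these letters and not a measured binding site.

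Of 24 NOTCH targets tested, 10 fell and IL7R rose, with a median of -0.31 log2 units, -0.23 on the first and -0.38 on the second combination array. HES1 read 1242 and 1296 with DMSO and 309 and 246 with the combination (-2.20 ± 0.15, adjusted p = 0.00329). HES4 went from 5660 and 5448 to 1473 and 861 (-2.30 ± 0.25), and HES5 from 518 and 508 to 83.6 and 92.1 (-2.55 ± 0.13). No array of these genes overlapped between the groups, and the combination lay below PF-03084014 alone in HES5, with a difference of -0.95 (adjusted p = 0.0322), while the differences for HES1 (-0.47, adjusted p = 0.192) and HES4 (-0.67, adjusted p = 0.251) were not called. HES4 was not called without the first DMSO array (-2.27). Of the HES1 probe sets, 2 fell and the third was at the floor on every array.

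The feedback inhibitor NRARP read 6280 and 5414 with DMSO and 672 and 515 with the combination, a 9.91-fold fall, against 948 and 898 with PF-03084014 alone. Its difference of -0.65 between combination and PF-03084014 was not called (limma, adjusted p = 0.0946). The ubiquitin ligase gene DTX1 went from 2960 and 3096 to 767 and 651, against 672 and 659 with PF-03084014, with a difference of 0.09 between combination and PF-03084014 that was not called (adjusted p = 0.608). HEY1 (-2.22), SHQ1 (-1.36) and DHRS3 (-1.20) completed the large falls. MYC, a NOTCH target that drives growth in these leukemias, read 4878 and 4256 with DMSO and 4145 and 3572 with the combination and was not called (-0.24 ± 0.10, adjusted p = 0.19), and the NOTCH3 arrays overlapped (196 and 267 against 216 and 142). Across the settings other than the fit of 4 arrays, 7 to 13 members fell.

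Some NOTCH-linked genes differed between the combination and PF-03084014 alone. IL7R, the interleukin 7 receptor, read 6562 and 6168 with DMSO, 4560 and 4588 with PF-03084014, 7686 and 7849 with dexamethasone and 9183 and 9864 with the combination. It lay below DMSO on both PF-03084014 arrays and above it on both combination arrays, with a rise of 0.58 ± 0.051 log2 units (adjusted p = 0.00478) and a difference of 1.06 from PF-03084014 (adjusted p = 0.00526). The rise over DMSO was not called after the shift to a common median (0.41) or with the mean of its probe sets (0.27). PTCRA read 1273 and 1236 with DMSO, 739 and 735 with PF-03084014, 1779 and 1814 with dexamethasone and 981 and 946 with the combination, between the values of the single compounds. It fell by 0.38 ± 0.040 and exceeded PF-03084014 alone by 0.39 (adjusted p = 0.0211).

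Of 34 components of the NOTCH pathway, 8 rose: the receptor NOTCH1, the gamma-secretase subunits APH1B and NCSTN, the protease ADAM10, the coactivator MAML1, the glycosyltransferases MFNG and POGLUT1, and the ligase gene DTX3. NOTCH1 read 6825 and 6070 with DMSO and 9430 and 9490 with the combination, a rise of 0.56 ± 0.061 (adjusted p = 0.00759). DTX3 rose by 0.60 ± 0.091, but another of its probe sets was called lower, at -1.37. Quantile normalization also called 8 components higher. After the shift to a common median no component was called higher, and without the second combination array 4 members rose, APH1B and DTX3 not among them.

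In the BCL2 family, which decides whether mitochondria release the signal for cell death, 2 killers rose steeply. BCL2L11, which encodes BIM, read 667 and 692 with DMSO, 1395 and 1397 with dexamethasone and 3115 and 3265 with the combination, a 4.69-fold rise (2.23 ± 0.068 log2 units, adjusted p = 0.0011). BMF read 59.0 and 54.4 with DMSO, 247 and 284 with dexamethasone and 579 and 518 with the combination, a 9.67-fold rise (3.27 ± 0.20, adjusted p = 0.00307). The combination exceeded dexamethasone by 1.19 for BCL2L11 and 1.05 for BMF (adjusted p = 0.00602 and 0.0449), and PF-03084014 by 1.98 and 2.69. Of the 7 probe sets of BCL2L11, 5 were called higher and the other 2 stood at 0.66 and 0.72.

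Few other members were called. PMAIP1, which encodes the killer NOXA, fell from 7557 and 6708 to 4908 and 5048 (-0.52 ± 0.061, adjusted p = 0.00924). Of 12 death-promoting members 2 rose and 1 fell; BIK read 195 and 284 with DMSO and 642 and 405 with the combination and was not called (adjusted p = 0.0603), and BAX and BAK1 differed by -0.12 and 0.23, also not called. Among 6 survival members, BCL2L1, which encodes BCL-XL, rose from 2160 and 2182 to 2856 and 2846 (0.39 ± 0.032) and BCL2 from 1347 and 1394 to 1963 and 1749 (0.44 ± 0.092, adjusted p = 0.0415). The BCL2 call was lost without either combination array (0.52 and 0.35) and its sign turned with the mean of its probe sets (-0.056). MCL1 stood at 0.13 ± 0.079 and turned to -0.037 after the shift to a common median, called in neither. That is its brightest probe set; of its 6 probe sets 2 were called higher, at 0.65 ± 0.032 (limma over probe sets, adjusted p = 0.00308) and 0.75 ± 0.11 (adjusted p = 0.0238).

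**Figure D3:**
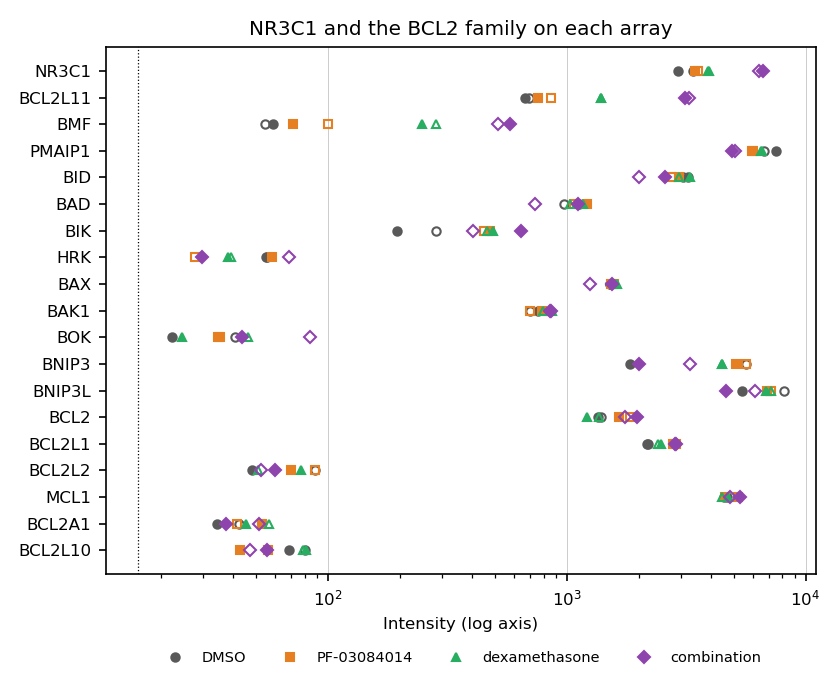
Intensity on a log axis of NR3C1 and of the death-promoting and survival members of the BCL2 family on all 8 arrays, with filled symbols for replicate 1, open symbols for replicate 2 and a dotted line at the floor of 16. The combination diamonds of NR3C1, BCL2L11 and BMF lie to the right of every other array, those of PMAIP1 lie to the left, and most other members overlap.

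Of 23 caspases, death receptors and their partners, 3 rose and 2 fell. These 21.7% are near the shares of the brightest group by DMSO intensity, 11.2% higher and 11.8% lower. The counts therefore do not set this list apart from bright genes. CASP8, the initiator caspase of death receptors, read 2513 and 2495 with DMSO and 3849 and 4437 with the combination (0.72 ± 0.069, adjusted p = 0.00562) and exceeded each compound alone. CFLAR, which encodes the CASP8 inhibitor FLIP, rose by 0.52 ± 0.11 and BIRC2, an inhibitor of apoptosis, by 0.40 ± 0.088. The mitochondrial death factors DIABLO and CYCS fell by 0.21 ± 0.044 and 0.19 ± 0.031. CFLAR and DIABLO were not called without the second combination array, and CFLAR turned to -0.54, not called, without probe sets ending in _x_at or _s_at.

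The genes that copy DNA were lower with both compounds. Of 35 genes of DNA replication and the G1/S step, 24 fell, with a median of -0.60 log2 units, -0.52 on the first and -0.65 on the second combination array. The median of the same genes was -0.073 with PF-03084014 and -0.13 with dexamethasone, and 18 were lower with the combination than with PF-03084014 (background of falls, 1.75%) and 21 than with dexamethasone (background, 3.97%). ORC1, of the complex that marks origins, read 930 and 996 with DMSO, 843 and 845 with PF-03084014, 847 and 917 with dexamethasone and 497 and 470 with the combination. Its difference from DMSO was -0.99 ± 0.065 (adjusted p = 0.00329), and it was also called lower than with each compound alone. POLD1, the catalytic subunit of DNA polymerase delta, went from 1443 and 1466 to 792 and 619, a difference of -1.06 ± 0.12.

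The falls reached most parts of the replication machinery. They took in the helicase subunits MCM2 to MCM6, with MCM10 and the loaders and partners CDC6, CDC45, GINS1, GINS2 and GINS4, and the primase and polymerase subunits PRIM1, POLE2 and POLD1. Also lower were the clamp loaders RFC2 to RFC5, the ligase LIG1 and flap nuclease FEN1, and the S-phase drivers E2F1, CCNE1 and CCNE2. MCM2 went from 5264 and 5456 to 3550 and 3268, GINS2 from 3771 and 3805 to 2169 and 1727, and cyclin E1 (CCNE1) from 876 and 958 to 484 and 502, with no overlap in any of them. The clamp PCNA (-0.13 ± 0.041), MCM7 (-0.26 ± 0.080) and RPA1 (0.02 ± 0.041) were among the 11 not called. Without the second combination array 24 members fell, with array weights 20, and without a DMSO array 15 or 14; POLD1 was then not called (-1.07 and -1.04).

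Of 32 genes of mitosis and the G2/M step, 8 fell, and the median was -0.20 log2 units. CDC25A, a phosphatase that activates cyclin-dependent kinases, went from 2186 and 2231 to 1285 and 1060 (-0.92 ± 0.092), and CDC25C fell by 0.59 ± 0.11. KIF2C, AURKA, PRC1, BUB1, CCNB1 and CDK1 fell with differences of -0.39 to -0.15, and MKI67 stood at 0.00 ± 0.15 and was not called. The count was 18 without the first combination array and 1 or 2 without a DMSO array.

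Regulators of G1 moved in both directions. Of 17, the kinases CDK2 (-0.63) and CDK4 (-0.84 ± 0.18), CCNG1 and the inhibitor CDKN1A fell, and CCNG2 and the inhibitor CDKN2D rose. CDKN1A, which encodes p21, read 410 and 282 with DMSO and 79.3 and 117 with the combination (-1.82 ± 0.28, adjusted p = 0.0176). CCNG2, a cyclin raised in resting cells, went from 3937 and 4176 to 5863 and 6141, against 5876 and 6504 with PF-03084014 alone. Neither rise was called after the shift to a common median, while quantile normalization called 2 members higher. CDK4 was not called without either DMSO array (-0.83 and -0.84), nor CDKN1A without the first (-1.55).

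Glycolysis genes, which break down glucose, were lower in part. Of 23 tested, 11 fell and PFKFB2 rose, with a median of -0.51 log2 units, -0.48 and -0.53 on the combination arrays. The median was -0.098 with PF-03084014 and -0.045 with dexamethasone, and 8 and 9 members were lower with the combination than with each. The aldolase gene ALDOC read 2000 and 2302 with DMSO, 1224 and 1331 with PF-03084014, 1394 and 1463 with dexamethasone and 562 and 562 with the combination, a difference of -1.93 ± 0.082 (adjusted p = 0.00162). The enolase gene ENO2 went from 2057 and 2767 to 813 and 587 (-1.79 ± 0.20). Both lay lower with the combination than with either compound alone, with differences of -1.18 and -1.35 for ALDOC and of -1.20 and -1.23 for ENO2, and all 4 differences were called.

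PKM, GPI, the phosphofructokinase genes PFKL, PFKP and PFKM, TPI1, ENO1, LDHA and PGK1 fell as well, with differences from -1.43 to -0.18. Pyruvate kinase PKM read 1939 and 2033 with DMSO and 874 and 619 with the combination. The enzyme genes GAPDH (-0.13 ± 0.072) and LDHB (-0.11 ± 0.066) and the transporter gene SLC2A1 (0.65 ± 0.51) were not called. Without the second combination array 10 members fell, and across the settings other than the fit of 4 arrays the count ran from 5 to 15.

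Cholesterol and fatty acid synthesis had the lowest median of the 36 lists. Of 22 tested, 12 fell, with a median of -0.65, -0.52 on the first and -0.76 on the second combination array, against -0.21 with each compound alone. The desaturase gene FADS2 read 1511 and 1516 with DMSO and 617 and 426 with the combination (-1.56 ± 0.17, adjusted p = 0.0078). STARD4, a cholesterol carrier, went from 1325 and 1465 to 547 and 612 (-1.27 ± 0.082, adjusted p = 0.00329). Both were lower with the combination than with either compound alone. The others that fell were DHCR7, SCD, MSMO1, SQLE, HMGCS1, IDI1, FDPS, EBP and LSS of the synthesis steps and SREBF1, whose product switches on lipid genes. Without the second combination array 12 fell, and without either DMSO array 7, FADS2 not among them (-1.56 each time).

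**Figure D4:**
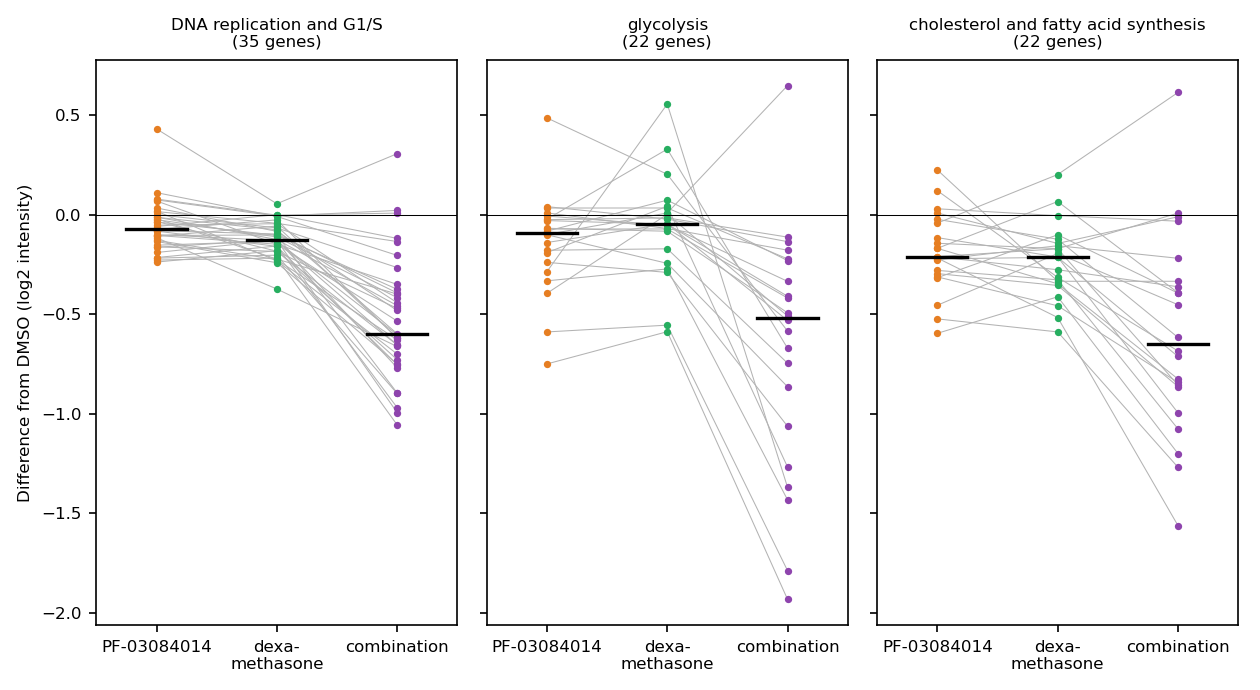
Difference from DMSO in log2 intensity for each gene of DNA replication and G1/S, glycolysis, and cholesterol and fatty acid synthesis, with PF-03084014, dexamethasone and the combination; a line joins the values of 1 gene and the bar is the median, and PFKFB2 (3.82 with the combination) is left off the glycolysis panel. The bars lie between -0.21 and 0 for the single compounds and between -0.65 and -0.51 for the combination; all 3 columns share the DMSO arrays.

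Several branches of building-block synthesis held genes that fell. Of 26 genes of nucleotide and folate synthesis 13 fell, with a median of -0.42, and of 21 genes of amino acid supply and polyamines 10 fell and 1 rose, with a median of -0.46. MTHFD2, a mitochondrial folate enzyme, read 6473 and 5462 with DMSO and 3400 and 3724 with the combination (-0.74 ± 0.094). PSAT1, of serine synthesis, went from 5364 and 3763 to 2146 and 1967 (-1.13 ± 0.17). Of these genes PSAT1 was not called without the second combination array (-1.07), nor were the folate enzyme gene SHMT1 (main value -1.11 ± 0.22) and the cystine transporter gene SLC7A11 (-1.82 ± 0.41), whose DMSO arrays read 1775 and 730.

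Purine genes GMPS, PAICS, IMPDH2, PFAS, GART and PRPS1, pyrimidine genes CAD and CTPS1, the deoxynucleotide genes TK1 and RRM2, and MTHFD1 made up the rest of the nucleotide falls, with differences between -0.73 and -0.23 log2 units. The glutamine transporter gene SLC38A2 rose by 0.17 ± 0.038; it stood at 0.15 without the second combination array and at -0.0029 after the shift to a common median, called in neither. The nucleotide count moved with the arrays, to 21 without the first combination array and 5 without either DMSO array or with array weights. The amino acid count was 7 without the second combination array and 4 without the first DMSO array. SHMT1 changed sign to 1.12, not called, without probe sets ending in _x_at or _s_at.

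Few genes of the ribosome and the respiratory chain were called, and a larger share of the aminoacyl-tRNA synthetases. Ribosome biogenesis had 1 fall in 30 genes, NOP14 (-0.23 ± 0.048), which was not called without the second combination array (adjusted p = 0.0573), and none of 20 cytosolic ribosomal proteins was called by limma, nor did any have an unadjusted p under 0.05. The ribosomal protein gene RPL8 read 13211 and 13463 with DMSO and 12947 and 11873 with the combination. The aminoacyl-tRNA synthetases FARSB, YARS1, AARS1 and IARS1 fell (4 of 17), FARSB from 2383 and 2568 to 1809 and 1649 (-0.52 ± 0.061). Of 24 respiratory chain genes, SDHA and UQCRC2 fell by 0.31 ± 0.038 and 0.18 ± 0.031. That share of 8.33% is below the 11.8% called lower in the brightest group by DMSO intensity. The 23.5% of synthetases is above it, but with array weights 2 synthetases were called lower. Without the first combination array 10 ribosomal proteins, 9 ribosome biogenesis genes, 12 synthetases and 14 respiratory chain genes were called lower, with the second as the only combination array.

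In the MYC network, 2 of 10 genes rose, the MYC partner MAX (0.34 ± 0.062) and the glucose sensor MLXIP (0.84 ± 0.10). MAX was not called without the second combination array (0.35, adjusted p = 0.0736), and neither was called with array weights or with probe sets averaged per gene. MLXIP read 420 and 444 with DMSO and 751 and 798 with the combination. The count of 2 in 10 was not tested against the shares called among genes of like brightness.

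Genes of developing T cells were higher in part. The list of thymocyte and T cell receptor genes held 31 members, of which 10 rose and 2 fell, with a median of 0.20 log2 units. The recombinase gene RAG1, which cuts receptor genes for rearrangement, read 1167 and 1321 with DMSO, 2772 and 2893 with PF-03084014, 2055 and 2467 with dexamethasone and 3856 and 5099 with the combination (1.84 ± 0.16, adjusted p = 0.00466). RAG2 went from 726 and 761 to 1787 and 2128 (1.39 ± 0.10). For both recombinase genes the combination was called higher than dexamethasone alone (adjusted p = 0.0315 and 0.031) and not than PF-03084014 alone (adjusted p = 0.12 and 0.078).

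The antigen-presenting CD1C and CD1D, the signalling genes TXK, LCP2, TRAT1 and SH2D1A, CD2 and CD3E were the other rises. The costimulatory receptor CD27 fell, reading 2713 and 2340 with DMSO, 1383 and 1232 with PF-03084014 and 997 and 759 with the combination (-1.53 ± 0.15). Quantile normalization called 10 members of the list higher. Without the second combination array 9 members rose, and 4 did so after the shift to a common median or with array weights.

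Among 22 T-lineage transcription factors 6 rose and 2 fell. SATB1, a chromatin organiser of thymocytes, read 1422 and 1489 with DMSO, 2563 and 2612 with PF-03084014, 1977 and 1997 with dexamethasone and 3861 and 3547 with the combination. It rose by 1.35 ± 0.052 (adjusted p = 0.00139) and exceeded each compound alone, by 0.52 and 0.90. GATA3 went from 3992 and 4308 to 6359 and 6240, close to its level with PF-03084014 (6783 and 6445), and rose by 0.60 ± 0.050. RUNX3 fell from 2245 and 2554 to 1104 and 1162 (-1.08 ± 0.071). ID3 stood at 0.33 with PF-03084014 and -0.28 with dexamethasone and fell by 0.63 ± 0.12 with the combination. Only SATB1 of the 6 rises was called after the shift to a common median, while quantile normalization called 5 members higher.

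Receptors for homing and adhesion held both very large and small changes. Of 21, CCR2, ITGA6, the thymus-homing receptor CCR9, SELPLG and CXCR4 rose. S1PR1, the receptor that lets lymphocytes leave tissue, fell from 315 and 277 to 117 and 152 (-1.15 ± 0.18). In cytokine signalling 5 of 25 rose and 1 fell. The kinase JAK1 went from 2660 and 2800 to 4155 and 4212 (0.62 ± 0.041) and exceeded each compound alone. That is its brightest probe set. Another read 1344 and 1522 with DMSO and 909 and 610 with the combination (-0.94, not called). With the mean of its probe sets JAK1 stood at 0.12. SOCS1 rose by 0.71 ± 0.15. IL4R fell by 0.88 ± 0.20 and was not called without the second combination array (-0.65). After the shift to a common median no cytokine signalling gene was called higher, against 5 with quantile normalization.

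Targets of FOXO factors and genes of resting cells rose in 11 of 27 and fell in 2, with a median of 0.41 log2 units, 0.24 and 0.44 on the combination arrays. The group shares TSC22D3, BTG1 and TXNIP with the glucocorticoid list and IL7R with the NOTCH list. Its other rises were PIK3IP1, YPEL5, CITED2, KLF2, CCNG2, KLF6 and TOB2, and S1PR1 and the repressor gene BCL6 (-0.29 ± 0.062) fell. Quantile normalization called 11 members higher. BCL6 was not called without the second combination array (-0.25, adjusted p = 0.115), and was called in 9 of 24 alternative settings. The count of rises was 9 without the second combination array and 5 after the shift to a common median.

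In PI3 kinase and mTOR signalling, 5 of 24 rose and 2 fell. PIK3R1, the regulatory subunit of PI3 kinase, read 1485 and 1547 with DMSO, 1970 and 2014 with PF-03084014, 1836 and 2108 with dexamethasone and 3557 and 4733 with the combination (1.44 ± 0.14, adjusted p = 0.00618). Both combination arrays lay well above all others. TSC1, a brake on mTOR, rose by 0.61 ± 0.087. EIF4EBP1, the translation repressor that mTOR inactivates, fell from 930 and 911 to 486 and 312 (-1.24 ± 0.21), and the phosphatase gene PHLPP1 fell by 0.42 ± 0.073. Quantile normalization called 5 members higher and 1 lower. The count of rises was 3 without the second combination array and 1 after the shift to a common median, and the falls numbered 5 without the first combination array.

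Immediate early genes and feedback regulators of MAP kinases rose in 9 of 27 and fell in 1. EGR1 read 1175 and 1388 with DMSO, 4612 and 5241 with PF-03084014, 1254 and 1058 with dexamethasone and 4164 and 5196 with the combination, a rise of 1.86 ± 0.16 (adjusted p = 0.00429). The pseudokinase gene TRIB1 read 45.9 and 42.4 with DMSO, 251 and 259 with PF-03084014, 58.6 and 56.7 with dexamethasone and 238 and 163 with the combination, a rise of 2.16 ± 0.21. The combination arrays overlapped those with PF-03084014 in EGR1 and lay below them in TRIB1, and neither difference was called (-0.08 and -0.37). FOS, SPRED2, DUSP10, DUSP2, DUSP1, IER2 and DUSP6 rose too, and the phosphatase gene DUSP5 fell by 0.75 ± 0.17. Without the second combination array 6 members rose.

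TGF-beta and BMP genes split. The transducer SMAD3, read at 238 and 254 with DMSO and 552 and 645 with the combination (1.28 ± 0.11), the receptors BMPR2 and TGFBR2, and SKI rose. ID1, an inhibitor of basic helix-loop-helix factors, fell from 829 and 679 to 122 and 70.0 (-3.02 ± 0.32), and the ligand gene BMP4 from 900 and 731 to 181 and 88.7 (-2.68 ± 0.33). SMAD7, ID3 and SMAD1 also fell, making 4 rises and 5 falls in 19. ID1 and BMP4 stood at -2.29 and -2.22 with PF-03084014, and the combination was not called against it (adjusted p = 0.299 and 0.498). BMP4 was not called without either DMSO array (-2.53 and -2.83).

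Calls among stress genes went in both directions, while the list leaned lower, with a median of -0.22 log2 units. Both combination arrays lay below both DMSO arrays in 14 of its 23 genes and above them in 6. Over all genes these shares were 21.5% and 29.1%. Of 23 genes of the unfolded protein and integrated stress response 3 rose and 4 fell: XBP1 rose from 2453 and 1972 to 4460 and 4787 (1.07 ± 0.11), with CREBRF and EDEM1, while VLDLR, CEBPB, TRIB3 and the chaperone gene HSP90B1 fell. HSP90B1 went from 1760 and 1780 to 601 and 312 (-2.03 ± 0.45, adjusted p = 0.0472) and was not called without the second combination array. Its probe sets all end in _x_at, and none was called in the limma fit over all probe sets (adjusted p = 0.0652 and 0.201). Of 27 autophagy and lysosome genes 4 rose: TP53INP1, the initiating kinase ULK1 (197 and 234 to 382 and 405), ATG14 and LAMP1. That share of 14.8% is near the 10.4% and 11.2% called higher in the brighter groups by DMSO intensity. ULK1 was not called without the second combination array (0.83).

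Inflammatory and metal-response genes changed in small numbers, which were not tested against the shares called among genes of like brightness. Of 17 NF-kappaB targets, LTB (0.84 ± 0.10) and TNFAIP3 (0.64 ± 0.10) rose and TNF (-0.54 ± 0.10) and IRF1 (-0.41 ± 0.089) fell, and of these LTB alone was called without the second combination array. Of 25 interferon-response genes, IFIT2 rose from 105 and 120 to 229 and 241, and IFIT1, USP18, OAS1, IFI6 and XAF1 fell, IFIT1 from 72.8 and 95.8 to 28.1 and 20.1 (-1.81 ± 0.23). Of 11 metallothioneins and zinc transporters, SLC30A1 rose (0.83 ± 0.15) and MT2A, MT1G and MT1H fell, none of which was called without the second combination array. MT1G turned to 0.69, not called, without probe sets ending in _x_at or _s_at.

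The calls leaned on the DMSO arrays as well. Of 108 called genes followed through every left-out array, 46 were not called without the first DMSO array and 39 without the second, all with the same sign as before. Beside those already given, both lists held BCL2, RGS1, MT2A, FKBP4, APH1B, CFLAR, DIABLO, CYCS, ID3, S1PR1, SOCS1, IL4R, NOP14, SHMT1, SLC38A2, CDC25C, CDKN2D, BCL6, DUSP5, TSC1, EIF4EBP1, PHLPP1, UQCRC2, HSP90B1, IRF1, IFIT2, USP18, MT1G and BMPR2. STIP1, MLXIP, MAX, SLC7A11, YARS1, CCNG2, ULK1 and TNF joined them without the first DMSO array, and DTX3, IFIT1 and SLC30A1 without the second. Of the 108, 22 were not called without the second combination array: ENPP1, BCL2, MT2A, APH1B, DTX3, CFLAR, DIABLO, IL4R, MAX, NOP14, SHMT1, SLC38A2, SLC7A11, PSAT1, BCL6, HSP90B1, ULK1, TNFAIP3, TNF, IRF1, SLC30A1 and MT1G. Without the first combination array BCL2 (0.35), SHMT1 (-0.96), SLC7A11 (-1.93) and DUSP5 (-0.57) were not called, while falls numbered 5 among NOTCH pathway components, 4 among thymocyte genes, 3 among death-promoting BCL2 members and 8 among the stress response genes. NR3C1, BCL2L11, BMF, TSC22D3, FKBP5, NRARP, DTX1, HES1, HES5, ORC1, ALDOC and STARD4 were called with any 1 of the DMSO or combination arrays left out.

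**Figure D5:**
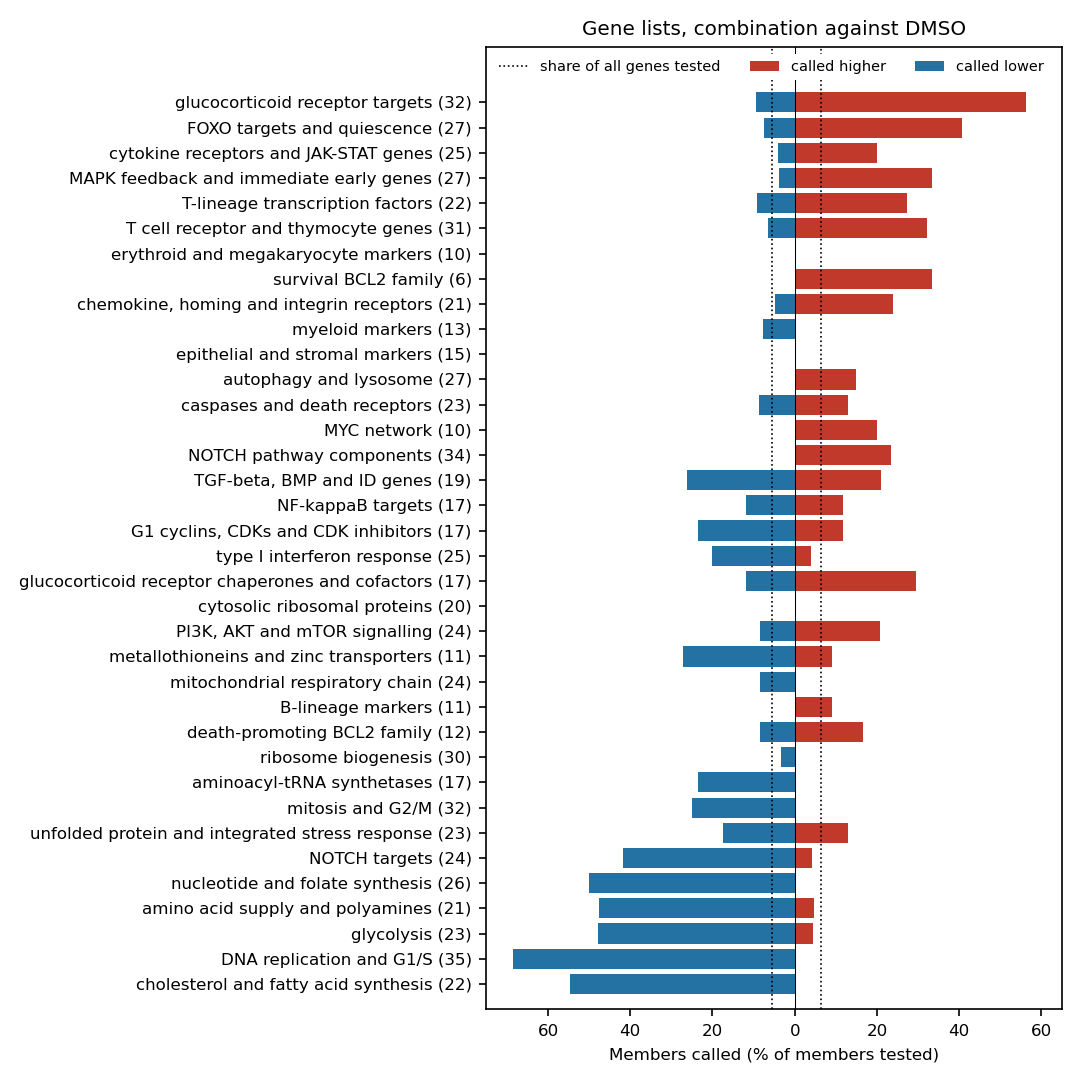
Share of tested members called higher (red, to the right) and lower (blue, to the left) with the combination against DMSO for the 36 gene lists, in order of their median difference, with the number tested in brackets and dotted lines at the shares over all genes, 6.42% and 5.52%. The longest bar to the right is glucocorticoid receptor targets (18 of 32) and the longest to the left is DNA replication and G1/S (24 of 35). In the brightest group by DMSO intensity the shares were 11.2% and 11.8%, so the dotted lines are low for lists of bright genes.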

How the data were processed

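Messenger RNA of CUTLL1 cells was measured on 8 Affymetrix arrays, 2 per group. Per the labels, cRNA was made from total RNA with a 3 prime amplification kit. The authors deposited linear intensity values for 54675 probe sets; the sources used here do not give their summarisation, normalization and background step. Of the probe sets, 41097 carried 1 gene in the annotation supplied; 11777 without a gene and 1801 with several were left out. Intensities below 16 were set to 16 and converted to log2, and each of 19775 genes was represented by its brightest probe set. limma 3.58.1 in R 4.3.3 (statmod 1.5.0) fitted a mean per group over 8 arrays with 4 residual degrees of freedom and an intensity trend, two-sided, adjusted by Benjamini-Hochberg, called under 0.05. The median standard error was 0.178, and the number of arrays limits the precision. A plus-minus sign precedes the standard error of the fit, and differences are log2 units unless a fold is named. The fit was tested on simulated data. The genes and lists were chosen with earlier results of these data known. Named genes were a preset group, the 12 largest rises and falls, and from each of 36 lists the 2 called members that rose most and the 2 that fell most, or the smallest p where none was called; further list members are given to complete a group. Alternatives changed scaling, floor, filters, probe sets, variance model and arrays. Some list members, such as TCF7, were not analysed here.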

Additional observations from a re-analysis of the deposited data

How the results depend on the processing

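Of 108 called genes followed through the 24 alternative settings, 101 reversed in none of the 22 to 24 that held them (HES1 stood at 0 without probe sets ending in _x_at or _s_at), 86 were called without the second combination array, 104 without the first, 99 with quantile normalization, 83 after the shift to a common median and 68 with array weights. Against 2360 genes called (1269 higher, 1091 lower), the shift to a common median called 1304 (329 higher, 975 lower), array weights 859 (412 and 447), and the fit of the 4 compared arrays 0 in either direction, with 3723 at an unadjusted p under 0.05. With probe sets averaged per gene, 683 were higher and 907 lower. Quantile normalization gave 1267 higher and 1083 lower. Leaving out 1 array at a time gave 826 to 6219 calls, 411 to 3540 higher and 415 to 2679 lower: 826 and 871 without a DMSO array, 1175 to 1273 without an array of a single compound, and 6219 without the first combination array. Why these counts moved was not tested.

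Averaging probe sets reversed NOTCH3 (0.068), BCL2 (-0.056) and SHMT1 (0.0023). Dropping probe sets ending in _x_at or _s_at reversed FKBP4 (0.36), CFLAR (-0.54), SHMT1 (1.12), YARS1 (0.063) and MT1G (0.69), and the shift to a common median reversed MCL1 (-0.037) and SLC38A2 (-0.0029). None of these was called there, and the cause was not tested. A replicate block gave 2277 calls (1214 higher, 1063 lower), 1967 of them among the 2360; same-numbered arrays deviated together with a correlation of -0.010 to 0.082, so the pairing rests on a number alone. A minimum mean intensity of 200, chosen after seeing the data, called 1510 and 1471 of 9015 genes. A floor of 32 or 64 in place of 16 gave 2151 and 1911 calls, and no fold is measured below the floor.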

Other observations

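Some further groups were drawn up after their values had been seen, so they carry no test as groups. Of 25 hypoxia-responsive genes 9 fell (limma, adjusted over all genes), with a median of -0.58 log2 units, -0.99 on the first and -0.35 on the second combination array. The peptide hormone gene ADM read 1067 and 2666 with DMSO and 267 and 272 with the combination (-2.65 ± 0.44, adjusted p = 0.0211), and the vessel growth factor gene VEGFA went from 3253 and 3961 to 1239 and 1478 (-1.41 ± 0.13, adjusted p = 0.00486). EGLN3, HILPDA, ANKRD37, ALDOC, ENO2, PGK1 and LDHA were the other falls, the last 4 shared with the glycolysis list. The DMSO arrays themselves differed over this group, with summed intensities of 66614 and 96377 against 51850 and 58631 for the combination. The part of that difference in the falls was not tested.

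Of 23 genes of homologous recombination and the Fanconi pathway, which mend broken and crosslinked DNA, 10 fell, with a median of -0.48 log2 units. FANCG read 1671 and 1629 with DMSO and 941 and 992 with the combination (-0.77 ± 0.042, adjusted p = 0.00229), and RAD54B went from 1155 and 1152 to 606 and 555 (-0.99 ± 0.078, adjusted p = 0.004). BRCA1, RAD51C, RAD54L, FANCL, EXO1, RMI1, ATAD5 and RDM1 fell too, and 8 members were lower with the combination than with each compound alone. Of 25 proteasome subunits, by contrast, PSMB5 alone fell (-0.55 ± 0.10), with a median of -0.17 over the group.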
